A study of Mus musculus with 2 samples.

Results

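The interleukin-1 (IL-1) family messages of lipopolysaccharide (LPS)-treated mouse macrophages were examined as 7 genes: the ligands Il1a, Il1b and Il18, the antagonists Il1rn and Il18bp, and the receptor chains Il1r2 and Il1rap. They were found by gene symbol, and all 7 had an entry among 16218 named genes. The TKO library came from C57BL/6J bone marrow-derived macrophages that carry mir-106a~363-/- and mir-106b~25-/- alleles together with mir-17~92flox/flox and Lyz2-Cre, so that 3 related microRNA clusters are deleted. The WT library came from C57BL/6J macrophages that carry Lyz2-Cre alone, so both genotypes share the Cre. Lyz2-Cre recombines in cells of the myeloid lineage, which here removes the floxed mir-17~92, while the other clusters are deleted in every cell. Marrow was grown for 5 days with 10% serum and 10% L929 supernatant, which supplies M-CSF, and both cultures received 10 ng/ml LPS, a Toll-like receptor 4 agonist, for 3 h. Each genotype had 1 library, the number of mice behind it is not known here, and no unstimulated library was analysed here. Every difference below therefore compares 2 libraries, has no replicate check and cannot be told apart from any other difference of the cultures.

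IL-1α and IL-1β, encoded by Il1a and Il1b, bind the receptor IL1R1, which then recruits the accessory chain encoded by Il1rap and signals through MyD88 to NF-κB. The product of Il1rn, the IL-1 receptor antagonist, occupies the same receptor without recruiting the accessory chain, and the product of Il1r2 is a decoy receptor that binds ligand without signalling. IL-18 is made as a precursor and, like IL-1β, is cleaved by caspase-1, and IL-18 binding protein, from Il18bp, holds the secreted cytokine away from its receptor. LPS strongly induces Il1a, Il1b and Il1rn in macrophages. Message levels do not show how much mature cytokine was cleaved or released.

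The sequences compared here are the seeds of the deleted microRNAs and any matches to them in the members' 3′ untranslated regions (UTRs). The deleted clusters hold 4 main seed families, shown here by a mature microRNA of each (RefSeq, GRCm38.p6), with the seed, bases 2 to 8, in capitals.
mmu-miR-17-5p: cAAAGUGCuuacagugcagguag
mmu-miR-18a-5p: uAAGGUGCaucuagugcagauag
mmu-miR-19b-3p: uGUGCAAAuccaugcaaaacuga
mmu-miR-92a-3p: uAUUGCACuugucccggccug
The first seed is shared by 6 mature microRNAs of the clusters, among them miR-20a, miR-93 and miR-106b. The second is shared by 2, the third by 2 and the fourth by 3, including miR-25 and miR-363. The opposite arms of these hairpins were not searched.

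The 7-base matches on the sense strand were GCACTTT for the miR-17 seed, GCACCTT for the miR-18 seed, TTTGCAC for the miR-19 seed and GTGCAAT for the miR-92 seed. They were searched in the longest 3′ UTR that GENCODE M21 annotates for each member. Il1rn held 1 match to the miR-17 seed and Il1a held 1 match to the miR-18 seed, while Il1b, Il18, Il18bp, Il1r2 and Il1rap held none. The matches are printed with their flanks, the matched bases in capitals.
Il1rn, miR-17 seed match at UTR bases 549 to 555, chr2:24350169-24350195, plus strand, GRCm38: gctcagggggGCACTTTtaaggatcta
Il1a, miR-18 seed match at UTR bases 378 to 384, chr2:129300317-129300343, minus strand, GRCm38: atctcactgtGCACCTTcggcttcaaa
Such matches are frequent. Of 10874 genes that averaged 1 CPM (counts per 1000000 counts of the library) or more and had an annotated 3′ UTR, 15% had the miR-17 match, 9.43% the miR-18 match and 34.3% a match to at least 1 of the 4 seeds. The searched UTRs were 1101 bases for Il1a, 459 for Il1b, 334 for Il18, 1864 for Il1rn, 861 for Il18bp, 24 for Il1r2 and 2676 for Il1rap, against a median of 1221 bases over those genes.

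AU-rich elements in the 3′ UTR are bound by mRNA-destabilising proteins such as tristetraprolin and are a known feature of cytokine messages. The core TATTTAT occurred 3 times, overlaps allowed, in each of Il1a, Il1b and Il1rap, and 0 times in Il18, Il1rn, Il18bp and Il1r2. At least 1 core was found in 31.1% and at least 3 in 4.18% of the same genes. In Il1b the 3 cores form a single run, shown with the cores in capitals because they lie closest together there.
Il1b, AU-rich run at UTR bases 204 to 222, chr2:129364802-129364830, minus strand, GRCm38: ttaccTATTTATTTATgTATTTATtgatt
A sequence match is a description of the letters and does not show that a microRNA or protein acts there.

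Il1rn, the receptor antagonist, was the member farthest from equality and was lower in TKO, while the messages of its competing ligands Il1a and Il1b were nearly level. Il18 was higher in TKO, Il18bp was higher by less, Il1rap was close to equality, and Il1r2 was near the detection floor. Levels are given as CPM of the library total, which was 10836855 counts for TKO and 10764519 for WT. Ratios are TKO over WT with a 95% counting interval (exact Clopper-Pearson, conditional binomial). Count ratios between genes within a library were compared between the libraries as conditional odds ratios, with exact 95% intervals. A gene was counted as apart when log2 of (TKO CPM + 0.5) over (WT CPM + 0.5) passed 1.5-fold. Of the 7 members, 6 had a mean of at least 1 CPM, and of these Il18 was at least 1.5-fold higher and Il1rn at least 1.5-fold lower. Over all 11662 genes at that level, 9.93% were 1.5-fold apart, 3.57% higher and 6.36% lower in TKO. The median log2 ratio was 0.07 over the 6 members and −0.04 over all these genes. At 2-fold, which 2.7% of genes passed (1.02% higher and 1.68% lower in TKO), 0 members were apart.

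**Figure D1:**
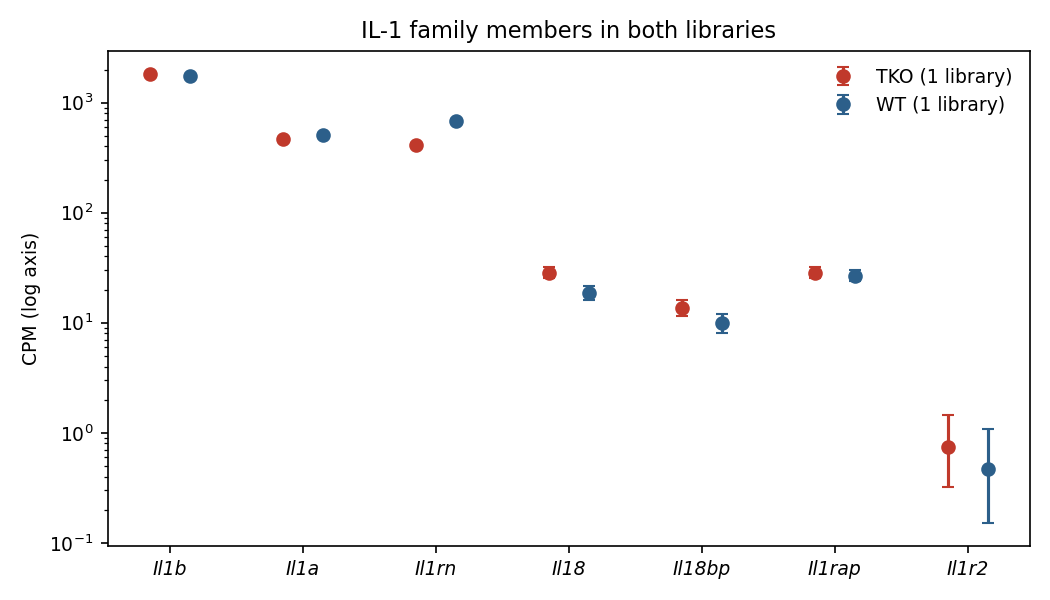
CPM of each member (log axis) in the TKO library (red, left of each pair) and the WT library (blue, right), 1 library each, with 95% Poisson counting intervals. Il1rn stands at 413 CPM in TKO and 688 CPM in WT, Il18 at 28.4 and 18.6 CPM, and the Il1b points are nearly level.

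The ligand messages Il1b and Il1a were abundant in both libraries. Il1b (gene 16176, chromosome 2, 129364570 to 129371139, minus strand) had 19764 counts, or 1824 CPM, in TKO and 18970 counts, or 1762 CPM, in WT, a ratio of 1.03 (1.01 to 1.06). By FPKM, which divides by length, it ranked 24 in TKO and 29 in WT among all genes. Il1a (gene 16175, chromosome 2, 129299610 to 129309972, minus strand) had 5056 counts, or 467 CPM, in TKO and 5521 counts, or 513 CPM, in WT, and was 1.10-fold lower (1.06 to 1.14). The interval of neither ligand reached 1.5-fold, although both excluded equality at these depths. Of measured genes, 84.1% lay at least as far from equality as Il1b and 60.2% at least as far as Il1a. These shares include genes of few counts, whose ratios scatter more by counting error alone. The count ratio of Il1b to Il1a within a library, which does not depend on scaling, was 1.14-fold higher in TKO (1.09 to 1.19).

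Il1rn (gene 16181, chromosome 2, 24336853 to 24351494, plus strand) encodes the IL-1 receptor antagonist. It had 4476 counts in TKO and 7401 counts in WT, or 413 and 688 CPM. The message was 1.66-fold lower in TKO (1.60 to 1.73), and the whole counting interval lay past 1.5-fold. Among measured genes, which include those of few counts, 5.9% lay at least as far from equality as Il1rn in either direction. In the same direction, 3.75% were at least as low. Its 1 match to the miR-17 seed is printed above, and whether that sequence bears on its level was not tested. Transcripts of Il1rn start at several annotated sites and encode a secreted and intracellular forms, which a count per gene does not separate. The number of counts per FPKM unit, which carries the length used for the gene, was 26.8 in TKO and 26.6 in WT. Relative to the median of 2132 genes with at least 1000 counts in each library, this is a length ratio of 1.001 for Il1rn, while 87 of those genes departed from 1 by over 1%. In these bulk libraries fewer cells making a message and less of it per cell cannot be told apart.

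**Figure D2:**
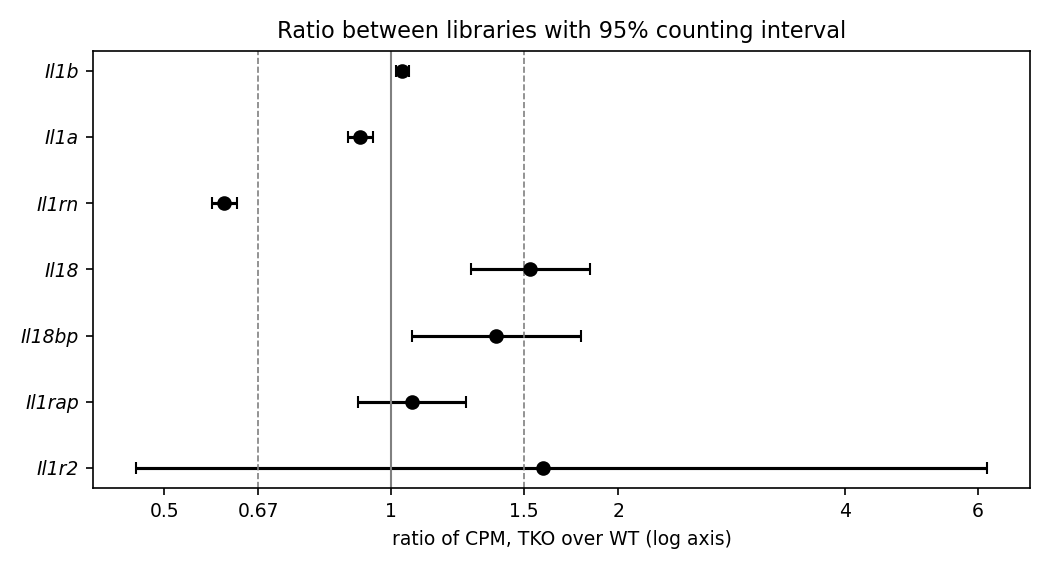
Ratio of CPM, TKO over WT (log axis), for each member, with 95% counting intervals; the solid line marks equality and the dashed lines 1.5-fold either way. The interval of Il1rn lies wholly below the lower dashed line, the intervals of Il18 and Il18bp cross the upper one, and that of Il1r2 crosses both.

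Because ligand and antagonist compete for the same receptor, their messages were also compared within each library. Summed Il1a and Il1b FPKM was 9.62 times that of Il1rn in TKO and 5.69 times in WT. Il1b alone was at 8.20 times the FPKM of Il1rn in TKO and 4.76 times in WT. Il1a was above Il1rn in TKO, at 1.42 times its FPKM, and slightly below it in WT, at 0.937 times. From the counts, the ratio of Il1a to Il1rn, in which the gene lengths cancel, was 1.51-fold higher in TKO (1.44 to 1.60). The ratio of summed Il1a and Il1b counts to Il1rn was 1.68-fold higher (1.61 to 1.75). In that sum the lengths do not cancel exactly, because Il1a is longer than Il1b. For the IL-18 pair, Il18 was at 3.50 times the FPKM of Il18bp in TKO and 3.15 times in WT. The count ratio of that pair was 1.11-fold higher in TKO with an interval of 0.807 to 1.53, so a difference was not detectable at this depth.

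**Figure D3:**
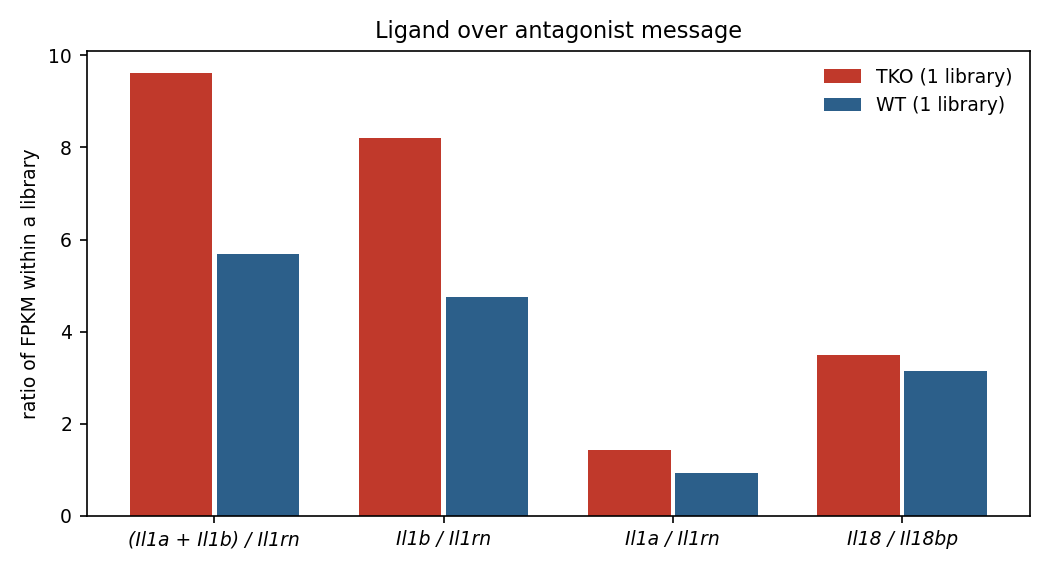
Ratio of ligand FPKM to antagonist FPKM within each library, TKO (red, left) and WT (blue, right), 1 library each, for the IL-1 pairs and the IL-18 pair; bars start at 0 and have no replicate error. The summed IL-1 ligand bar is 9.62 in TKO and 5.69 in WT, while the IL-18 bars are 3.50 and 3.15.

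Il18 (gene 16173, chromosome 9, 50554827 to 50581840, plus strand) had 308 counts in TKO and 200 counts in WT, or 28.4 and 18.6 CPM. It was 1.53-fold higher in TKO (1.28 to 1.84), so the interval excluded equality but reached below 1.5-fold. Of measured genes, 9.48% lay at least as far from equality in either direction, and 96.6% were at or below Il18. Il18bp (gene 16068, chromosome 7, 102014885 to 102018690, minus strand), the soluble antagonist of IL-18, had 147 counts in TKO and 106 in WT. Its 13.6 CPM in TKO against 9.85 CPM in WT gave a ratio of 1.38 (1.07 to 1.79), short of 1.5-fold. Both messages of the IL-18 pair thus lay above equality in TKO, each from few counts.

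The receptor chains were the least abundant members per length. Il1rap (gene 16180, chromosome 16, 26581704 to 26730117, plus strand), the accessory chain shared by the receptors for IL-1, IL-33 and IL-36, had 309 counts in TKO and 288 in WT, a ratio of 1.07 (0.905 to 1.26). The decoy receptor gene Il1r2 (gene 16178, chromosome 1, 40074079 to 40125231, plus strand) had 8 counts in TKO and 5 in WT, or 0.738 and 0.464 CPM, against a floor of 3 counts (0.277 CPM in TKO and 0.279 CPM in WT). Its ratio of 1.59 had an interval of 0.458 to 6.17, and no difference was detectable at this depth.

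Per length, the members spanned more than 3 orders of magnitude in the same cells. In TKO the order by FPKM was Il1b at 1368, Il1a at 237, Il1rn at 167, Il18 at 33.7, Il18bp at 9.63, Il1rap at 6.59 and Il1r2 at 0.55. In WT it was Il1b at 1322, Il1rn at 278, Il1a at 260, Il18 at 22.0, Il18bp at 6.99, Il1rap at 6.15 and Il1r2 at 0.35. Il1a and Il1rn thus changed places between the libraries, although in WT they were only 1.07-fold apart. Their counting intervals did not overlap in either library: 230 to 244 FPKM for Il1a and 162 to 172 FPKM for Il1rn in TKO, and 254 to 267 FPKM for Il1a and 271 to 284 FPKM for Il1rn in WT. Il18bp and Il1rap were separate in TKO (8.14 to 11.3 and 5.88 to 7.37 FPKM), while in WT their intervals overlapped (5.72 to 8.45 and 5.46 to 6.90 FPKM).

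**Figure D4:**
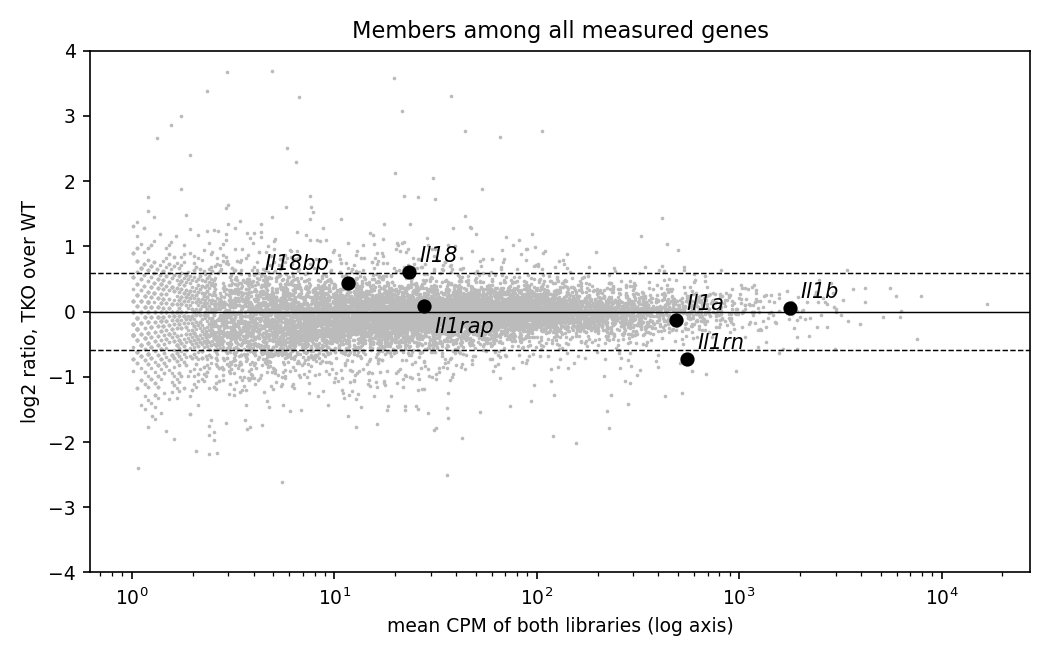
Log2 ratio, TKO over WT, against mean CPM of both libraries (log axis) for measured genes (grey) and the 6 measured members (black, named); dashed lines mark 1.5-fold, and 11 genes lie outside the plotted range. Il1rn lies below the lower dashed line among abundant genes, Il18 just above the upper one, and Il1a and Il1b near 0.

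The authors' deposited table compares these 2 libraries, by a test that is not known here, and lists log2 ratios of FPKM of −0.74 for Il1rn and 0.61 for Il18. Its adjusted value was 5.5e-162 for Il1rn, 2.97e-05 for Il18, 1.57e-05 for Il1a and 0.00588 for Il1b. The authors' deposited table gave adjusted values of 0.0603 for Il18bp, 0.727 for Il1rap and 0.721 for Il1r2. Il1a and Il1b thus had small adjusted values beside ratios close to equality. These values hold no spread between replicates.

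Other genes of the family were scarce. Of the other ligands, Il1f9 (IL-36γ) had 71 counts in TKO and 70 in WT, a ratio of 1.01 (0.714 to 1.42), and Il1f6 (IL-36α) had 5 and 6. Il33, an alarmin of stromal and epithelial cells, had 3 counts in TKO and 13 in WT, below the 1 CPM level. Of 8 other receptor genes, 4 reached that level, and 0 were 1.5-fold apart by the log2 ratio, against 9.93% of measured genes, with a median of −0.23. Il1r1, the signalling receptor for both IL-1 ligands, had 19 counts in TKO and 25 in WT, a ratio of 0.755 (0.393 to 1.43). Il18rap, a signalling chain of the IL-18 receptor, had 46 counts in TKO and 71 in WT and was 1.55-fold lower (1.06 to 2.30), which by the log2 ratio of −0.58 fell just short of 1.5-fold. Il1rl2, a receptor for IL-36, had 29 and 32 counts, and Il1rl1, the IL-33 receptor, 51 and 55. Il18r1, the other chain of the IL-18 receptor, had 3 counts in TKO and 0 in WT, at the floor in both. Il1r1, Il18r1 and the single markers of other cell types given after this were named after their values were seen.

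Cleavage and release of IL-1β and IL-18 depend on inflammasome sensors, caspases and the pore-forming gasdermin D. All 17 genes listed for these steps were measured, with a median log2 ratio of −0.08 and a range of −0.37 to 0.39. Of these, 0 were 1.5-fold apart, against 9.93% of all measured genes and 5.23% of those averaging at least 10 CPM. Nlrp3, the sensor induced by LPS, had 14458 counts in TKO and 11770 in WT, a ratio of 1.22 (1.19 to 1.25). Casp1, which encodes the converting enzyme, had 1829 and 1960 counts, a ratio of 0.927 (0.869 to 0.988), and Ninj1, which encodes a protein of membrane rupture, had 1994 and 2323 counts, a ratio of 0.853 (0.803 to 0.906). Of 21 genes of the pathway below the receptors, 0 were 1.5-fold apart, with a median of 0.01 and a range of −0.35 to 0.39. At those shares few or none would pass in lists of 17 or 21 genes, so a count of 0 does not set these lists apart. The most abundant per length were Tab2, Myd88 and Peli1, with ratios of 0.874 (0.845 to 0.905), 0.941 (0.892 to 0.993) and 0.948 (0.911 to 0.987). All genes of both lists lay nearer to equality than Il1rn and Il18.

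**Figure D5:**
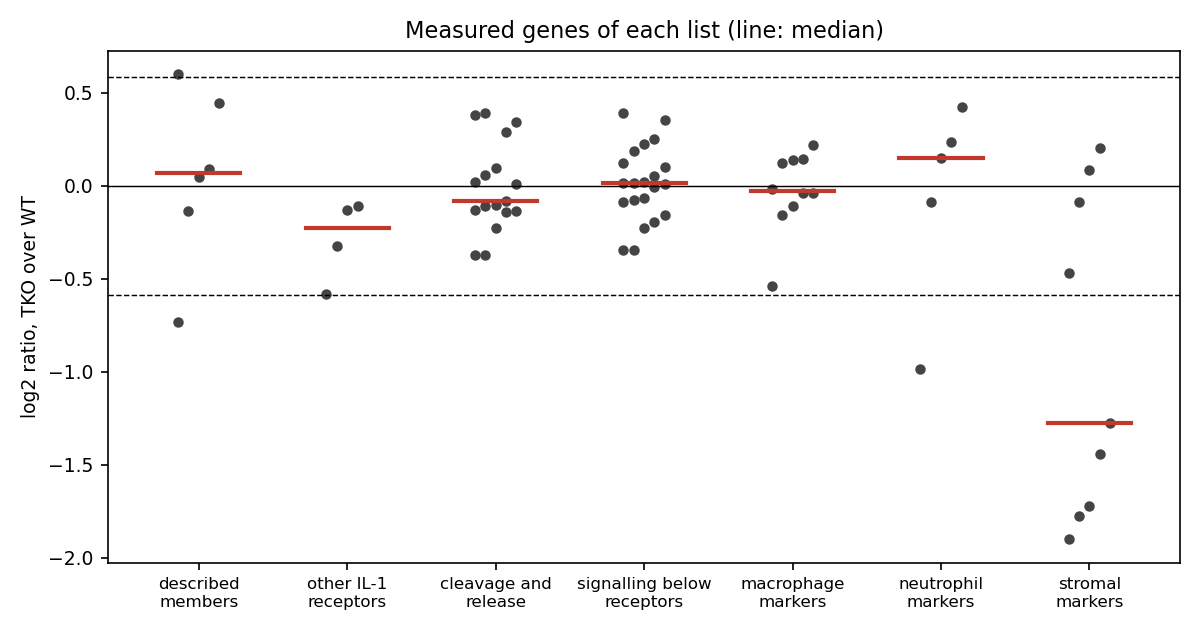
Log2 ratio, TKO over WT, of each measured gene (points) by list, with the list's median (red line); dashed lines mark 1.5-fold. The cleavage and signalling genes lie between −0.37 and 0.39, Il1rn and Il18 lie outside the dashed lines among the members, and 5 of 9 stromal markers lie below the lower one.

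The cells had the markers of macrophages in both libraries: all 10 listed genes were measured, and 0 were 1.5-fold apart, against 9.93% of all measured genes. Their summed level was 8139 CPM in TKO and 7894 CPM in WT. Cd14, Cd68 and Csf1r were the most abundant per length. Markers of other cells that can make IL-1 family messages differed in part between the libraries. For 9 neutrophil markers the sum was 26.8 CPM in TKO and 24.3 CPM in WT, and single genes ranged from 0 to 20.9 CPM. Of 5 measured, 3 lay above equality and 2 below. S100a9, with 8 counts in TKO and 21 in WT, was 1.5-fold lower, against 6.36% of all measured genes. Cxcr2 had 226 counts in TKO and 190 in WT, Mpo 18 and 12, S100a8 14 and 12, and Ngp 12 and 13. Ly6g, a defining neutrophil gene, had 1 count in TKO and 0 in WT. The part of neutrophils in the member differences was not tested. Of 10 fibroblast and stromal markers, 9 were measured and 5 were 1.5-fold lower in TKO: Col1a1 (550 and 2055 counts), Col1a2 (428 and 1166), Postn (79 and 271), Col3a1 (60 and 217) and Dcn (18 and 51). The other 4 measured were less than 1.5-fold apart: Pdgfrb had 510 counts in TKO and 478 in WT, Thy1 39 and 33, Pdgfra 30 and 32, and Cxcl12 29 and 42. The summed level of the 10 was 161 CPM in TKO and 404 CPM in WT, and most of that gap lay in Col1a1 and Col1a2. The collagen genes, Postn and Dcn were thus lower in the library with less Il1rn and less Il33, while Pdgfrb, Thy1 and Pdgfra were near level. The part of stromal cells in these differences was not tested. For 5 T and NK cell markers the sum was 9.32 CPM (101 counts) in TKO and 11.9 CPM (128 counts) in WT. This stood beside the lower Il18rap, and no interval was computed for the sum. Of 4 measured, 3 lay below equality and 1 above, and 1 was 1.5-fold lower: Lck, with 10 counts in TKO and 32 in WT, a ratio of 0.310 (0.136 to 0.647). Cd3d, the most abundant, had 48 counts in TKO and 53 in WT, Cd4 19 and 27, Cd8a 16 and 12, and Klrb1c 8 and 4. The intervals of all these but Lck included equality. The part of such cells was not tested. The 6 epithelial markers summed to 3.23 CPM (35 counts) in TKO and 2.32 CPM (25 counts) in WT, beside the higher Il18. No interval was computed for that sum, and 0 of these markers were measured at the 1 CPM level. Krt14 had 11 counts in TKO and 10 in WT, Krt5 14 and 6, Krt8 5 and 2, Cdh1 4 and 5, Epcam 0 and 2, and Krt18 1 and 0. The part of epithelial cells was not tested. The 8 dendritic cell markers summed to 14.4 and 11.5 CPM, the 5 B cell markers to 1.48 and 2.60 CPM, and the 4 mast cell and basophil markers to 1.48 and 2.23 CPM.

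The deleted microRNAs themselves are not measured in polyadenylated RNA. Mir17hg, the host transcript of mir-17~92, had 16 counts in each library, and Mcm7, the host gene of mir-106b~25, had 496 counts in TKO and 608 in WT. A count over a host gene does not check the deletion, so the genotypes are as labelled.

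Where genes overlap on opposite strands, their reads cannot be told apart, because the strand setting is not known here. Il1b overlaps Il1bos, an antisense transcript with 37 counts in TKO and 22 in WT, and Il1a overlaps Gm14023, with 265 and 299. Both are small beside the ligands' own counts. Il18bp shares 80 bases at its end with Numa1, a mitotic apparatus gene with 1678 counts in TKO and 1737 in WT, many more than the 147 and 106 of Il18bp, so the Il18bp value is uncertain to that extent. Il18 overlaps Bco2 (41 and 49 counts) and Tex12 (5 and 1), and Il1rap overlaps Gm20319 (10 and 12). Il1r2 overlaps the antisense gene Gm16894 and Gm37347, which were not analysed here. Il1rn overlaps no annotated gene in GENCODE M21.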

How the data were processed

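Polyadenylated RNA was sequenced in 1 TKO and 1 WT library. HISAT2 2.0.4, Bowtie2 2.2.5, RSEM 1.2.12 and mm10 were used, per the submitters' processing notes; which did what, the annotation and the strandedness are not stated in the labels used. The authors deposited estimated counts (79.4% whole in TKO and 79.2% in WT), which were rounded here. They also deposited FPKM, with 0.01 written for 0. The authors' deposited log2 ratio is that of TKO over WT FPKM. The authors' deposited p-value and adjusted value, a score with a maximum of 1.04, come from an unnamed test. The deposited gene length was used only for an alternative.

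One entry without a symbol (1 count in each library, 9.23e-06% in TKO and 9.29e-06% in WT) was left out. CPM used library totals. With 1 library per genotype no p-value was computed. Intervals and floors (3 counts) cover counting error only and hold no spread between cultures. PCR duplicates cannot be recognised without molecular identifiers, so the intervals may be too narrow even for counting error. The interval and fold steps were tested on simulated data. Members, gene lists and rules were chosen with earlier results of these data known. All members were named, with the genes of other lists at least 1.5-fold apart, up to 3 others highest in FPKM, and genes that overlap or flank a member. With 2 libraries no gene could be named for a like pattern. Entries were matched to GENCODE M21 (GRCm38) through RefSeq identifiers. The alternatives were TMM scaling (edgeR 4.0.16), DESeq2 1.42.0 size factors, pseudocounts of 0.1 and 1 CPM, deposited FPKM and other filters on low counts.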

Additional observations from a re-analysis of the deposited data

How the results depend on the processing

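Il1rn stayed past 1.5-fold lower and Il18 past 1.5-fold higher, and no other measured member was 1.5-fold apart, under TMM scaling, DESeq2 size factors, pseudocounts of 0.1 and 1 CPM and the deposited FPKM. The log2 ratio of Il1rn ranged from −0.74 to −0.69 and that of Il18 from 0.59 to 0.65, the lowest at a pseudocount of 1 CPM. At the level of Il1rn the pseudocounts can hardly move its ratio, and FPKM rests on the same counts. For that gene only the scalings were thus a check. The log2 ratio of Il1b moved beyond its counting interval, to 0.0975 with TMM and 0.0847 with DESeq2 size factors, against 0.05; these scalings moved the median of all measured genes by 0.0467 and 0.0342. Without a filter on low counts, 1 other ligand (Il33) was 1.5-fold lower and 1 other receptor (Il18r1) 1.5-fold higher, against 0 and 0. With a pseudocount of 0.1 CPM, 1 other receptor (Il18rap) was 1.5-fold lower, against 0. The percent of all genes 1.5-fold apart was 11.7 without the filter and 5.23 at a mean of at least 10 CPM, against 9.93. The other 97 recomputed values stayed within the limits set for them, which were intervals or counts for all but the members' median log2 ratio. For that median the limit was the range of the members, too wide to be a check. The median was 0.117 with TMM and 0.105 with DESeq2 size factors, against 0.07. Il1r2 is limited by depth, and Il18 and Il18bp by few counts. No paired analysis was possible because each genotype had 1 library.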

Other observations

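Il1a and Il1b lie side by side on chromosome 2, 54598 bases apart, while Il1rn lies elsewhere on that chromosome. The nearest genes with counts were described as values. Psd4, the nearest on the higher side of Il1rn at 16086 bases, had 1673 counts in TKO and 2228 in WT, a log2 ratio of −0.42, and Il1f6, the nearest on the lower side at 111151 bases, had 5 and 6. Ckap2l, beside Il1a, had 1275 counts in TKO and 1603 in WT, a log2 ratio of −0.34. Around Il18, Pts had 91 counts in TKO and 90 in WT and Sdhd, a respiratory chain subunit gene, had 408 and 435. Around Il18bp, Rnf121 had 129 counts in TKO and 166 in WT, a log2 ratio of −0.36, and Lrrc51 had 13 and 6. Beside Il1r2, Map4k4 had 2615 counts in TKO and 3042 in WT, a log2 ratio of −0.23. On the far side of Il1b, F830045P16Rik had 1 count in TKO and 2 in WT, and beside Il1rap, Cldn1 had 4 and 3 and Uts2b 0 and 1. Of these flanking genes, none with a mean of at least 1 CPM was 1.5-fold apart, against 9.93% of all genes at that level. At that share few or none would pass among so few genes, so the absence does not set them apart.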
